A study of Mus musculus with 12 samples.

Results

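The genes described here are 35 markers of macrophages and of the myeloid lineage, together with the growth factors Csf1 and Il34 that macrophages depend on. They were chosen by symbol, as markers of yolk sac-derived and monocyte-derived macrophages, and all 35 were found among the 24470 genes of the count table. After the filter on low counts, 31 of the 35 and 15572 of the 24470 genes could be tested, and Cd163, Timd4, Folr2 and Ly6c2 fell under it.

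Bulk RNA-seq was performed on whole fetal testes at E14.5 in pools of 3 testes, with 6 control pools and 6 conditional knockout (cKO) pools. Control embryos were Nr2f2 f/f and cKO embryos were Wt1 CreER x Nr2f2 f/f, so that both groups carried the floxed alleles and only the cKO carried the tamoxifen-inducible Cre. Per the study's methods, tamoxifen was injected 3 and 2 days before collection into pregnant females carrying embryos of both genotypes. The Cre was driven by the Wt1 promoter, which is active in somatic progenitors of the gonad, deletion was incomplete, and some interstitial cells kept NR2F2. NR2F2, or COUP-TFII, is a nuclear receptor of the interstitial progenitor cells of the testis.

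Macrophages of the fetal testis come first from the yolk sac and later also from monocytes of the fetal liver. They sit in the interstitium beside blood vessels and at the surface of the testis cords, take up dying cells and help to shape the vessels. Their survival and growth depend on the receptor tyrosine kinase CSF1R, which binds the ligands CSF1 and IL34 made by neighbouring cells. The transcription factor PU.1, encoded by Spi1, drives many genes of the lineage through purine-rich sites in their promoters and enhancers.

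Levels are given as CPM, counts per 1e+06 counts of the scaled library, and log2 fold changes (log2FC) are for cKO relative to control testes. Each gene was tested by the quasi-likelihood method of edgeR, with p-values adjusted by the Benjamini-Hochberg method over the 15572 genes, and genes with an adjusted p under 0.05 were called. Total counts ran from 7044531 to 39965574 in control and from 7322959 to 59404778 in cKO libraries. The targeted gene Nr2f2 had 175.5 ± 8.87 CPM (SD, n = 6) in control but 75.9 ± 24.5 CPM (SD, n = 6) in cKO testes, and all 6 cKO pools lay below every control pool. Xist, the RNA of the inactive X chromosome of XX cells, exceeded 100 CPM in 4 libraries, control 1 and cKO 3, 5 and 6, and lay between 5.15 and 7.68 CPM in the other 8. The labels do not give the sex of the embryos, and the results are therefore also given without these 4 libraries where that changed a call. The labels say that the libraries came from separate pools but not from how many litters, so the p-values measure the spread between these pools.

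In cKO testes, 6 of the 31 tested genes were upregulated: the chemokine receptor Cx3cr1, the lysosomal membrane protein Laptm5, the receptor Csf1r with its ligand Csf1, the lipid-sensing receptor Trem2 and the complement subunit C1qb. Their log2FC ran from 0.43 for Csf1 to 0.92 for Cx3cr1. These 6 genes are 19.4% of those tested, beside 3.28% of all genes called higher. No tested gene of the set was called lower, beside 4.85% of all genes. At an unadjusted p under 0.05, 1 gene was lower and 17 were higher, and the gene that was lower, Irf8, was the only one called lower by DESeq2 and by limma-voom. The share of all genes at an unadjusted p under 0.05 is not reported here, so counts at that threshold have no background beside them. The log2FC was positive for 25 of the 31 genes (80.6%), against 50.6% of all genes tested, and the median was 0.38, against 0.003. In 3 of the 31 genes (9.68%), Cx3cr1, Csf1r and Laptm5, every cKO pool lay above every control pool, beside 2.39% of all genes. No tested gene of the set had every cKO pool below every control pool, beside 3.13% of all genes. In bulk RNA, more or fewer cells of a type and more or less RNA per cell cannot be told apart, and this holds for every gene below. CPM are shares of a library, and the summed level of 8 interstitial genes was lower in cKO testes, at 793 to 1389 CPM against 1283 to 1951 CPM in control pools. Its part in the higher levels of the macrophage genes was not tested.

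**Figure D1:**
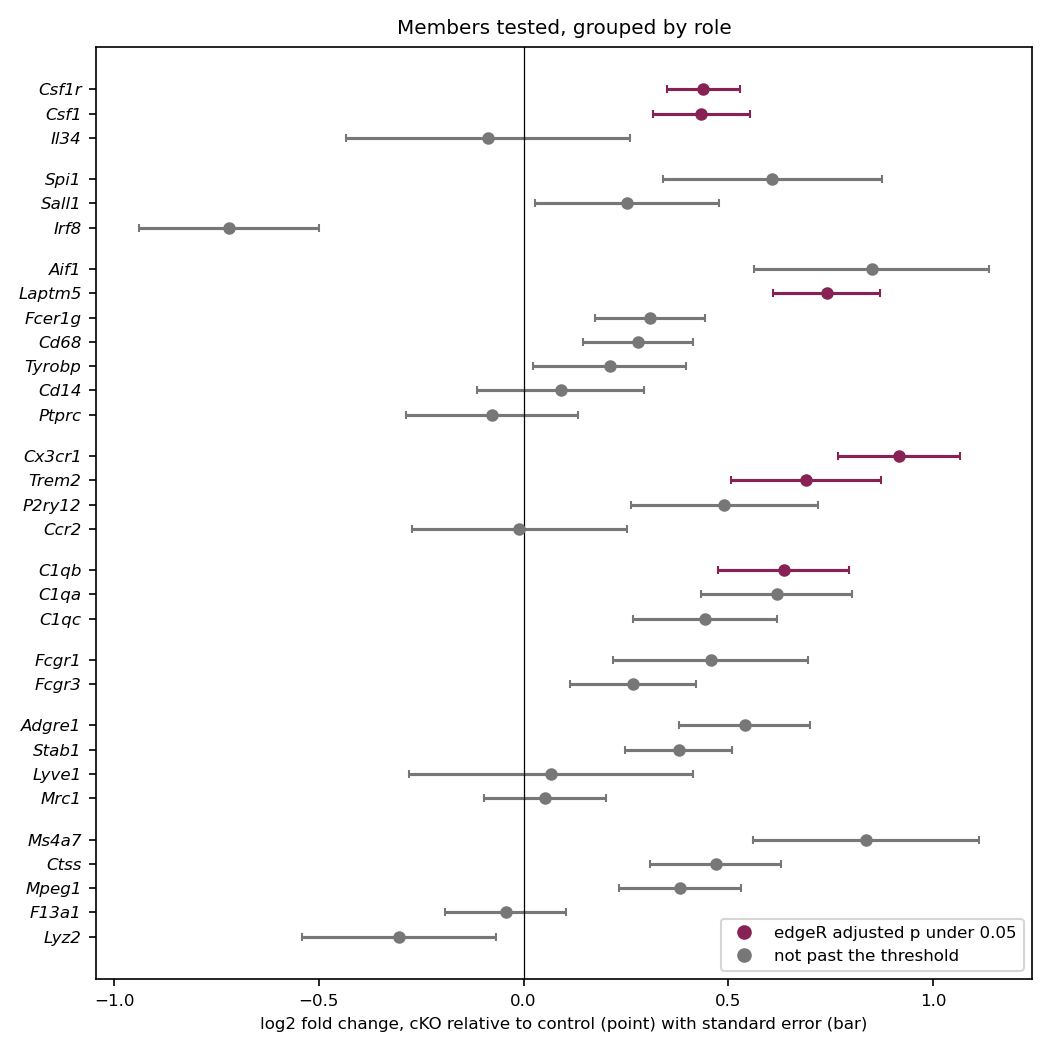
Log2 fold change of the 31 tested genes in cKO relative to control testes (point) with its standard error (bar), grouped by role, with the 6 genes past an adjusted p of 0.05 in purple. Most points lie to the right of 0, from 0.92 for Cx3cr1 down to -0.72 for Irf8.

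Promoter windows of the upregulated genes are shown because Spi1, whose factor PU.1 binds purine-rich sites, is itself in the set. The windows were taken from RefSeq on GRCm38.p6, which has the coordinates of mm10, and run from 250 bases before to 50 bases after the annotated start. Of the 35 genes, 27 had a window, and so had 5 of the 6 upregulated genes, on the minus strand at chr3:107760420-107760719 (Csf1), chr9:120068247-120068546 (Cx3cr1) and chr4:136886151-136886450 (C1qb) and on the plus strand at chr4:130913066-130913365 (Laptm5) and chr17:48346151-48346450 (Trem2). No window was used for Csf1r, Il34, Adgre1, C1qa, Tyrobp, Spi1, Cd14 and Lyve1, so the search for motifs did not cover these genes. Capitals mark the PU-box GAGGAA, searched on both strands, so that TTCCTC is the same motif on the opposite strand.
Csf1: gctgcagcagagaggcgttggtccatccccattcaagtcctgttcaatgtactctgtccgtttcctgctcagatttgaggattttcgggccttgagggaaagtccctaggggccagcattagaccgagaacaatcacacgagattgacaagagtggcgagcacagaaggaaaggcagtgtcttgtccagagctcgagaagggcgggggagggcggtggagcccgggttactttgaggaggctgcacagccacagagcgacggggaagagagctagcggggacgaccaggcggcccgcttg
Cx3cr1: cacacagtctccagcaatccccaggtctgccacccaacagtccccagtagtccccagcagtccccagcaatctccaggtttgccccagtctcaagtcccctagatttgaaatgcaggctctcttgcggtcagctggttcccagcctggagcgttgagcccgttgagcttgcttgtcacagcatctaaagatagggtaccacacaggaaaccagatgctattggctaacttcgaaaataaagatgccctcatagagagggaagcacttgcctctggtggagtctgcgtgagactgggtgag
Laptm5: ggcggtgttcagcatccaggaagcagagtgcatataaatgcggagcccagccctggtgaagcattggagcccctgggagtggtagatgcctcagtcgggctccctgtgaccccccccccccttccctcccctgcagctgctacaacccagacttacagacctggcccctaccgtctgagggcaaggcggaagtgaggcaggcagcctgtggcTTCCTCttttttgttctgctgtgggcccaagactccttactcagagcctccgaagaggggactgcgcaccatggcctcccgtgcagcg
Trem2: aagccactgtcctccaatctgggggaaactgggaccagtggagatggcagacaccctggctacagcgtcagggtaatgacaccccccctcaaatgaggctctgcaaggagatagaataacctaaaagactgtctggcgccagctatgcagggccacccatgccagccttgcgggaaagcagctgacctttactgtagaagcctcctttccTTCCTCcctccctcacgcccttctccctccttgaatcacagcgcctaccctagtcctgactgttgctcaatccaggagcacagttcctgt
C1qb: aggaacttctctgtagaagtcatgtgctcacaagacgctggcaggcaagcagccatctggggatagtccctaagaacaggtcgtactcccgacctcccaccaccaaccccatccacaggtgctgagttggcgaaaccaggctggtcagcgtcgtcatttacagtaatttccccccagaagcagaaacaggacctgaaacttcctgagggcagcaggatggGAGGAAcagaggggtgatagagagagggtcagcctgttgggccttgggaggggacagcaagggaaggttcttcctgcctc

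The start used for each window is that of RefSeq, and for Laptm5 and C1qb it differs by some bases from the end of the interval in the count table given with the gene below. With the RefSeq start at 0, the PU-box began at -38 in Laptm5 and at -40 in Trem2, both on the opposite strand, and at -30 in C1qb on the same strand. These letters were not found in the windows of Csf1 and Cx3cr1. Over the set, 15 of 27 windows (55.6%) held the PU-box, against 28.1% of 32544 windows of all genes. The core element bound by NR2F receptors, AGGTCA on either strand, was in 6 of 27 windows (22.2%), against 16.2% of all windows, and among the upregulated genes it was found in Trem2. Both are matches of letters, and no binding was measured in these libraries.

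The ligand Csf1 (Entrez Gene 12977, chromosome 3 of mm10 from 107741048 to 107760469) encodes colony stimulating factor 1, the main growth factor of macrophages. Csf1 stood at 7.36, 6.67, 7.59, 7.16, 9.03 and 9.98 CPM in control pools 1 to 6. Across cKO pools 1 to 6 it stood at 10.3, 10.7, 10.4, 12.8, 8.68 and 10.5 CPM. The values of 5 cKO pools lie above the highest control value, and cKO 5 lies within the control range. Csf1 rose 1.35-fold, from 7.96 ± 1.27 to 10.6 ± 1.32 CPM (SD, n = 6 each, log2FC = 0.43, SE = 0.12, adjusted p = 0.0363). Leaving out 1 library in turn, the call held in 4 of 12 fits, with adjusted p between 0.0221 and 0.0928, and it was lost without control 2, 3 or 4 or without cKO 1, 2, 3, 4 or 6.

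The other ligand, Il34 (chromosome 8, 110741829 to 110805924), encodes interleukin 34, which supports microglia and skin macrophages. Il34 had 1.7, 0.691, 0.83, 0.424, 0.842 and 0.723 CPM in control pools 1 to 6. The values in cKO pools 1 to 6 were 0.541, 0.595, 0.718, 0.711, 0.678 and 1.59 CPM. The groups overlap, and the highest value of each group, control 1 and cKO 6, belongs to a library with high Xist. The log2FC of -0.087 was within its standard error of 0.35 (adjusted p = 0.896). Per kilobase of exon, Il34 stood at 0.475 and Csf1 at 1.69 CPM per kb in control testes.

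Csf1r (Entrez Gene 12978, chromosome 18, 61105572 to 61131139), the receptor of both ligands, is carried by nearly all macrophages and their progenitors. It stood at 15.4, 14.4, 12.8, 13, 17.4 and 15.9 CPM in control pools 1 to 6. For cKO pools 1 to 6 the values were 19.7, 21, 18.6, 22, 20.2 and 18.7 CPM. The groups do not overlap. Csf1r rose 1.36-fold, from 14.8 ± 1.79 to 20.01 ± 1.32 CPM (SD, n = 6 each, log2FC = 0.44, SE = 0.089, adjusted p = 0.00749), and it was called in all 23 alternatives tried. The gene for a microRNA, Mir6983, lies inside it on the same strand, so a small part of its reads cannot be assigned with certainty.

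**Figure D2:**
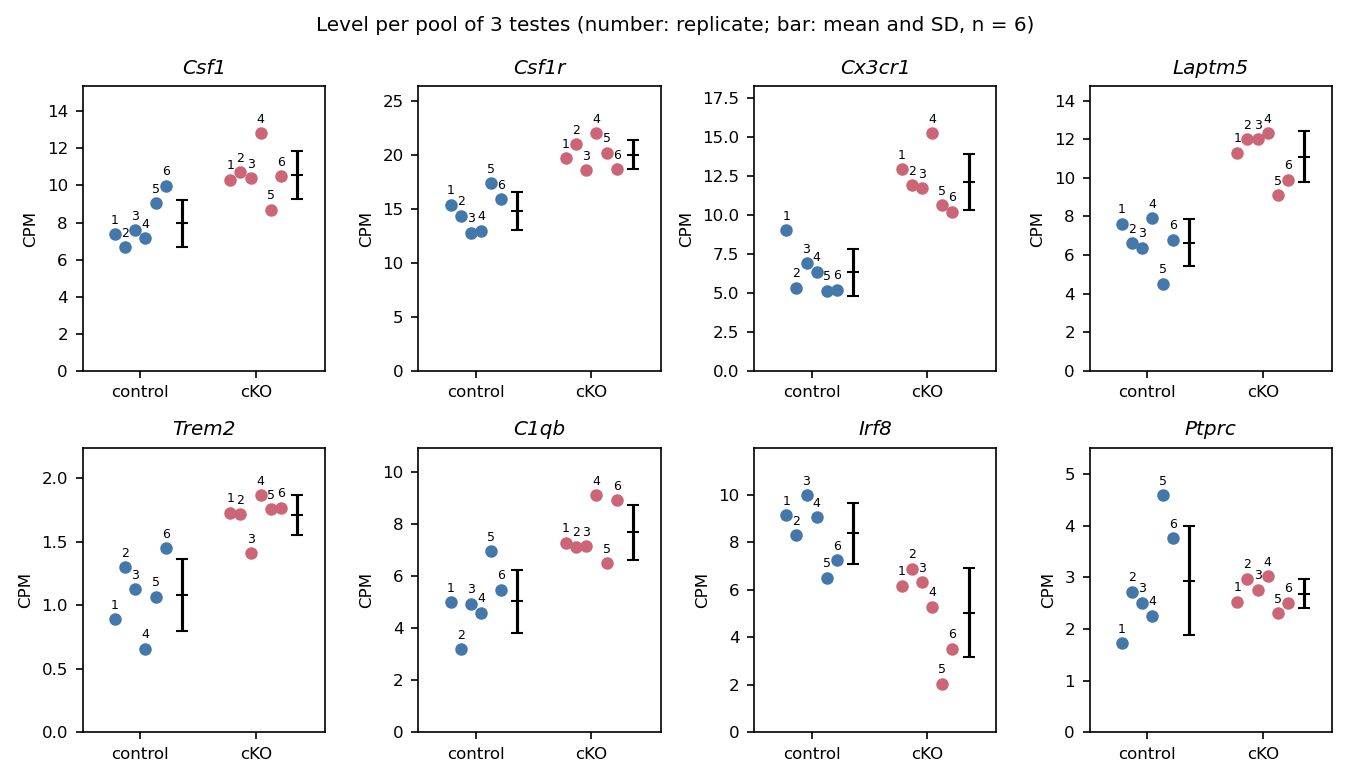
Level in CPM of the 6 upregulated genes, Irf8 and Ptprc in each pool of 3 testes (points, numbered by replicate), with the mean and SD over 6 pools per group (bars). The groups do not overlap for Csf1r, Cx3cr1 and Laptm5, 5 of 6 cKO pools lie below every control pool for Irf8, and the Ptprc values of the cKO pools lie inside the control range.

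Other growth factors of the myeloid lineage and their receptors gave no call by edgeR in 5 tested genes of 7, with 1 gene higher and 0 lower at an unadjusted p under 0.05 and none by DESeq2 or limma-voom. Csf2 and Csf3, the ligands for granulocyte growth, had under 10 counts over all 12 libraries. Csf2ra, a receptor subunit for CSF2, had the highest level of this list, at 21.9 ± 4.21 CPM in control against 25.4 ± 2.44 CPM in cKO testes (SD, n = 6 each, adjusted p = 0.265).

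Of the 3 transcription factors in the set, none was called by edgeR, with 1 higher and 1 lower at an unadjusted p under 0.05 and 1 called lower by DESeq2 and by limma-voom. Spi1 encodes PU.1, the master factor of the lineage. Its level was low, with 0.812, 1.26, 0.805, 1.37, 0.765 and 0.289 CPM in control pools 1 to 6. In cKO pools 1 to 6 it had 0.975, 1.72, 1.64, 1.9, 1.09 and 1.12 CPM. The groups overlap, with 3 cKO pools above every control pool, and the lowest value belongs to control 6, the library with the fewest counts. The log2FC was 0.61 (SE = 0.27, adjusted p = 0.175).

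Irf8, which directs monocyte and dendritic cell fates and partners with PU.1, had the most negative log2FC of the set. It ranged from 6.504 to 9.98 CPM in control pools (median 8.67) and from 2.04 to 6.88 CPM in cKO pools (median 5.72). Of the cKO pools, 5 lie below every control pool, and the lowest values are those of cKO 5 and cKO 6, which are libraries with high Xist. Without the 4 such libraries the log2FC was -0.46 (adjusted p = 0.0887). With all libraries the log2FC was -0.72 (SE = 0.22) and the adjusted p of 0.059 did not pass the threshold. DESeq2 (adjusted p = 0.0108) and limma-voom (adjusted p = 0.0223) called it lower, and over all 23 alternatives, of which 5 called it, the adjusted p ran from 0.0108 to 0.122. Sall1, a factor of microglia that is also made in embryonic kidney and other mesenchyme, stood at 9.89 ± 3.07 CPM in control against 11.9 ± 2.95 CPM in cKO testes (SD, n = 6 each, log2FC = 0.25, adjusted p = 0.496).

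Among 11 other transcription factors of the lineage, all tested, 1 was called lower and none higher by edgeR, with 2 higher and 2 lower at an unadjusted p under 0.05 and 1 in each direction by DESeq2 and by limma-voom. The gene that fell was Cebpb, a factor of inflammatory macrophages that many other cell types also express. It went from 10.7 ± 1.81 to 6.39 ± 1.75 CPM (SD, n = 6 each, log2FC = -0.72, SE = 0.17, adjusted p = 0.0175), and the groups do not overlap. Without the 4 libraries with high Xist, Cebpb was not called (log2FC = -0.59, adjusted p = 0.0678). The median log2FC of this list was 0.014.

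The 7 pan-leukocyte and pan-myeloid genes comprised 1 upregulated gene, Laptm5, and 6 genes that were not called. Laptm5 (Entrez Gene 16792, chromosome 4, 130913334 to 130936148) encodes a lysosomal membrane protein of blood cells. It stood at 7.63, 6.63, 6.39, 7.91, 4.51 and 6.8 CPM in control pools 1 to 6. Across cKO pools 1 to 6 it stood at 11.3, 12, 12, 12.3, 9.09 and 9.91 CPM. The groups do not overlap. Laptm5 rose 1.67-fold (6.64 ± 1.2 to 11.1 ± 1.32 CPM, SD, n = 6 each, log2FC = 0.74, SE = 0.13, adjusted p = 0.00315) and was called in all 23 alternatives.

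Ptprc encodes CD45, the surface phosphatase carried by nearly all white blood cells. It stood at 1.73, 2.72, 2.51, 2.26, 4.59 and 3.76 CPM in control pools 1 to 6. The values in cKO pools 1 to 6 were 2.53, 2.97, 2.76, 3.02, 2.31 and 2.51 CPM. The cKO values lie inside the control range, whose upper end is set by control 5 and control 6. The log2FC was -0.076 (SE = 0.21, adjusted p = 0.846), and its sign turned in 4 of 23 alternatives.

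Of the remaining genes of this kind, Aif1, the calcium-binding protein IBA1 used to stain macrophages, had the largest log2FC, at 0.85 (SE = 0.29, adjusted p = 0.0844). Its cKO values ran from 0.926 to 2.71 CPM and overlapped the control range of 0.565 to 1.30 CPM. Fcer1g and Tyrobp encode adaptor chains that pass on the signals of Fc receptors and of TREM2. Fcer1g stood at 2.69 ± 0.213 CPM in control against 3.28 ± 0.510 CPM in cKO testes (log2FC = 0.31, adjusted p = 0.171), and Tyrobp at 2.64 ± 0.667 and 3.00 ± 0.473 CPM (log2FC = 0.21, adjusted p = 0.495, SD, n = 6 each). Cd68, a lysosomal glycoprotein of phagocytes, went from 3.43 ± 0.410 to 4.16 ± 0.635 CPM without passing the test (SD, n = 6 each, log2FC = 0.28, adjusted p = 0.205). Cd14, the co-receptor for bacterial lipopolysaccharide, stood at 0.986 ± 0.284 and 1.02 ± 0.154 CPM (SD, n = 6 each, log2FC = 0.091, adjusted p = 0.807).

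The 4 receptors for chemokines, purines and lipids included 2 upregulated genes, Cx3cr1 and Trem2. Cx3cr1 (Entrez Gene 13051, chromosome 9, 120048683 to 120068296), the fractalkine receptor of tissue macrophages and patrolling monocytes, had the largest log2FC of the set. It stood at 9.01, 5.33, 6.91, 6.36, 5.13 and 5.21 CPM in control pools 1 to 6. For cKO pools 1 to 6 the values were 12.9, 11.9, 11.7, 15.2, 10.6 and 10.2 CPM. The groups do not overlap, and the highest control value is that of control 1, a library with high Xist. Cx3cr1 rose 1.89-fold, from 6.32 ± 1.499 to 12.1 ± 1.79 CPM (SD, n = 6 each, log2FC = 0.92, SE = 0.15, adjusted p = 0.00185). It was called in all 23 alternatives, with a log2FC from 0.84 to 1.19.

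Trem2 (Entrez Gene 83433, chromosome 17, 48346401 to 48352276) encodes a receptor for lipids and debris of dying cells that signals through TYROBP. It stood at 0.893, 1.3, 1.13, 0.659, 1.07 and 1.45 CPM in control pools 1 to 6. In cKO pools 1 to 6 it stood at 1.73, 1.72, 1.41, 1.87, 1.76 and 1.77 CPM. All cKO pools but cKO 3 lie above every control pool. Trem2 rose 1.61-fold, from 1.08 ± 0.282 to 1.71 ± 0.158 CPM (SD, n = 6 each, log2FC = 0.69, SE = 0.18, adjusted p = 0.0331). The call held in 5 of 12 fits that left out 1 library, with adjusted p between 0.0321 and 0.0732, being lost without control 3 or 4 or without cKO 1, 2, 4, 5 or 6. It was also lost without the 4 libraries with high Xist (log2FC = 0.71, adjusted p = 0.0792).

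Ccr2, the receptor that draws monocytes out of the blood, had 1.22, 3.21, 1.38, 2.5, 2.22 and 1.74 CPM in control pools 1 to 6. Across cKO pools 1 to 6 it had 1.7, 1.98, 3.07, 2.22, 1.36 and 1.57 CPM. The groups overlap fully, with a log2FC of -0.01 (SE = 0.26, adjusted p = 0.987). P2ry12, a purine receptor typical of microglia, stood at 1.15 ± 0.458 CPM in control against 1.503 ± 0.305 CPM in cKO testes (SD, n = 6 each, log2FC = 0.49, adjusted p = 0.196), and its highest value, 2.02 CPM, was that of control 6. Reads of P2ry12 lie inside the gene Med12l on the opposite strand, and the counting was by strand.

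The 3 chains of complement C1q, which opens the classical pathway and tags debris for uptake, are made by macrophages from a cluster of genes on the minus strand of chromosome 4, between 136880145 and 136898844. All 3 had a positive log2FC, and edgeR called 1, C1qb, whereas DESeq2 called 2 and limma-voom all 3. C1qb (Entrez Gene 12260, 136880145 to 136886177) stood at 5.01, 3.21, 4.95, 4.61, 6.96 and 5.49 CPM in control pools 1 to 6. The values in cKO pools 1 to 6 were 7.29, 7.14, 7.15, 9.13, 6.51 and 8.92 CPM. Only cKO 5 lies within the control range, whose highest value is that of control 5. C1qb rose 1.55-fold, from 5.04 ± 1.22 to 7.69 ± 1.07 CPM (SD, n = 6 each, log2FC = 0.64, SE = 0.16, adjusted p = 0.0255). The call held in 8 of 12 fits that left out 1 library, with adjusted p up to 0.0659, and was lost without control 3 or 4, without cKO 4 or 6, and without the 4 libraries with high Xist (log2FC = 0.69, adjusted p = 0.0644).

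C1qa had 3.22, 4.11, 4.8, 4.47, 7.57 and 6.22 CPM in control pools 1 to 6. Its cKO pools 1 to 6 had 6.71, 7.87, 5.97, 8.83, 8.14 and 8.2 CPM. Control 5 and control 6 overlap the cKO values, and the log2FC of 0.62 (SE = 0.19) did not pass the test (adjusted p = 0.0554), whereas DESeq2 (adjusted p = 0.0152) and limma-voom (adjusted p = 0.0179) called it. C1qc had 4.71, 4.19, 4.5, 4.85, 8.65 and 6.51 CPM in control pools 1 to 6. Its cKO pools 1 to 6 had 6.5, 6.54, 6.55, 8.33, 8.96 and 7.9 CPM. Without control 5, its log2FC went from 0.44 (SE = 0.18, adjusted p = 0.135) to 0.62 (adjusted p = 0.0153), and limma-voom called it with all libraries (log2FC = 0.54, adjusted p = 0.0418). In all 3 C1q genes, control 5 and control 6 were the highest control pools.

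Neither of the 2 Fc receptors, which bind antibody-coated particles, was called by edgeR, DESeq2 or limma-voom, and 0 passed at an unadjusted p under 0.05. Fcgr1, the high-affinity receptor for IgG, stood at 1.00 ± 0.374 CPM in control against 1.34 ± 0.251 CPM in cKO testes (SD, n = 6 each, log2FC = 0.46, adjusted p = 0.243). Fcgr3, a low-affinity receptor that signals through the FCER1G chain, stood at 2.56 ± 0.487 and 3.02 ± 0.429 CPM (SD, n = 6 each, log2FC = 0.27, adjusted p = 0.289). Reads of Fcgr3 may be shared with its close copies Fcgr2b and Fcgr4, which had means under 1 CPM in both groups.

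The signalling genes downstream of these receptors, which act on the ITAM motifs of TYROBP and FCER1G, had 3 of 11 tested genes called higher and 0 lower by edgeR, DESeq2 and limma-voom alike (0 lower at an unadjusted p under 0.05), with a median log2FC of 0.16. Inpp5d, the inositol phosphatase SHIP1 that restrains these signals, went from 6.82 ± 1.26 to 10.6 ± 1.00 CPM (SD, n = 6 each, log2FC = 0.62, adjusted p = 0.00644). Ptpn6, the tyrosine phosphatase SHP-1, which is also an inhibitor, went from 5.98 ± 0.940 to 9.34 ± 1.55 CPM (SD, n = 6 each, log2FC = 0.63, adjusted p = 0.0106). Pik3ap1, an adaptor that recruits PI3-kinase, went from 2.17 ± 0.246 to 3.16 ± 0.489 CPM (SD, n = 6 each, log2FC = 0.55, adjusted p = 0.0281). Inpp5d and Ptpn6 did not overlap between the groups. Without the 4 libraries with high Xist, Ptpn6 was not called (log2FC = 0.49, adjusted p = 0.0547).

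Of the 7 surface receptors of resident macrophages, 4 were tested and none was called by edgeR, with 2 higher and 0 lower at an unadjusted p under 0.05, 2 called higher by DESeq2 and 1 by limma-voom. Adgre1 encodes F4/80, the classical mouse macrophage antigen. It stood at 3.33, 3.42, 3.19, 4.05, 6.12 and 4.05 CPM in control pools 1 to 6. For cKO pools 1 to 6 the values were 5.09, 6.21, 5.34, 6.58, 6.24 and 5.32 CPM. Every cKO pool lies above 5 of the 6 control pools, and control 5 is within the cKO range. The log2FC was 0.54 (SE = 0.16, adjusted p = 0.0535), DESeq2 (adjusted p = 0.0127) and limma-voom (adjusted p = 0.0168) called it, and without control 5 the log2FC was 0.70 (adjusted p = 0.00386). Over the 23 alternatives the adjusted p ran from 0.00386 to 0.165.

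Stab1, a scavenger receptor of macrophages and of some endothelium, stood at 33.3 ± 7.39 CPM in control against 43.4 ± 4.93 CPM in cKO testes (SD, n = 6 each, log2FC = 0.38, SE = 0.13, adjusted p = 0.0905). Its highest control value, 46.2 CPM, was that of control 1, which also had the highest summed level of 12 endothelial genes, 732 CPM against 484 to 563 CPM in the other control pools. The part of this in Stab1 was not tested, and without the 4 libraries with high Xist Stab1 was called (log2FC = 0.61, adjusted p = 0.00862). Mrc1, the mannose receptor CD206, had 16.1 ± 4.43 and 16.4 ± 1.68 CPM (SD, n = 6 each, log2FC = 0.053, adjusted p = 0.85). Lyve1, a hyaluronan receptor of perivascular macrophages and of lymphatic endothelium, had 2.36 ± 1.58 and 2.23 ± 0.786 CPM (SD, n = 6 each, log2FC = 0.068, adjusted p = 0.923). The sign of both turned in some alternatives, in 2 for Mrc1 and in 5 for Lyve1. The microRNA gene Mir511 lies inside Mrc1 on the same strand, and Nt5dc2 overlaps Stab1 on the opposite strand.

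The other 3 receptors fell under the filter on low counts, and none was called by edgeR without a filter. Cd163, the haemoglobin scavenger receptor, had 1 to 6 counts per control library and 1 to 8 per cKO library. Timd4, which binds phosphatidylserine on dying cells and marks long-lived resident macrophages, had 0 to 3 and 1 to 11 counts. Folr2, a folate receptor of resident macrophages, had 2 to 18 and 1 to 17 counts.

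Of the 5 effector and lysosomal genes, none was called by edgeR, with 3 higher and 0 lower at an unadjusted p under 0.05 and 1 called higher by each of DESeq2 and limma-voom. Ctss, the cathepsin that trims antigens, was the gene called by both of these, and stood at 5.09 ± 1.39 CPM in control against 7.04 ± 0.741 CPM in cKO testes (SD, n = 6 each, log2FC = 0.47, SE = 0.16, adjusted p = 0.0887 by edgeR). Mpeg1, a pore-forming protein of phagosomes, had 5 cKO pools above and 1, cKO 5 at 6.24 CPM, below every control pool (log2FC = 0.38, SE = 0.15, adjusted p = 0.128). Without the 4 libraries with high Xist, among them cKO 5, Mpeg1 was called (log2FC = 0.66, adjusted p = 0.00509). Ms4a7, a membrane protein of tissue macrophages, went from 0.702 ± 0.287 to 1.21 ± 0.341 CPM without passing the test (SD, n = 6 each, log2FC = 0.84, SE = 0.28, adjusted p = 0.0793), and its reads may be shared with close copies of the Ms4a family. F13a1, a clotting factor subunit made by resident macrophages and platelets, had a log2FC of -0.044 (adjusted p = 0.876), with 6.11 ± 0.506 CPM in control against 5.82 ± 1.42 CPM in cKO testes (SD, n = 6 each).

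Lyz2, the lysozyme of macrophages and neutrophils, had the highest level per length of the set and a negative log2FC of -0.30 (SE = 0.24, adjusted p = 0.436). It ran from 6.98 to 21.8 CPM in control pools (median 12.7) and from 7.46 to 13.3 CPM in cKO pools (median 10.4). Lyz2 stood at 6.98, 21.8 and 8.93 CPM in control pools 1 to 3, at 14.9 and 11 CPM in control pools 5 and 6, with control 4 between these last values, and at 8.66, 12.4, 10.7, 13.3, 7.46 and 10.1 CPM in cKO pools 1 to 6. The summed level of 11 neutrophil genes, given beside it, was 11, 88.4, 16.3, 39.3, 17.8 and 24 CPM in control pools 1 to 6 and 15.4, 11.2, 26.8, 62.3, 15.6 and 10.8 CPM in cKO pools 1 to 6. Both were highest in control 2 among control pools and in cKO 4 among cKO pools. The part of neutrophil RNA in Lyz2 was not tested. The close copy Lyz1 had under 10 counts over all libraries.

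Ly6c2, a surface antigen of classical monocytes, was the 1 monocyte gene of the set and fell under the filter, and it was not called by edgeR without a filter. It had 5, 14, 9, 6, 3 and 2 counts in control pools 1 to 6 and 3, 0, 14, 23, 0 and 17 counts in cKO pools 1 to 6. The groups overlap, and its reads may be shared with the close copy Ly6c1. Among 9 tested genes of 12 on a list of other monocyte genes, none was called by edgeR or limma-voom, 2 were called lower by DESeq2, and 1 was higher and 3 were lower at an unadjusted p under 0.05. The median log2FC of that list was -0.092.

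**Figure D3:**
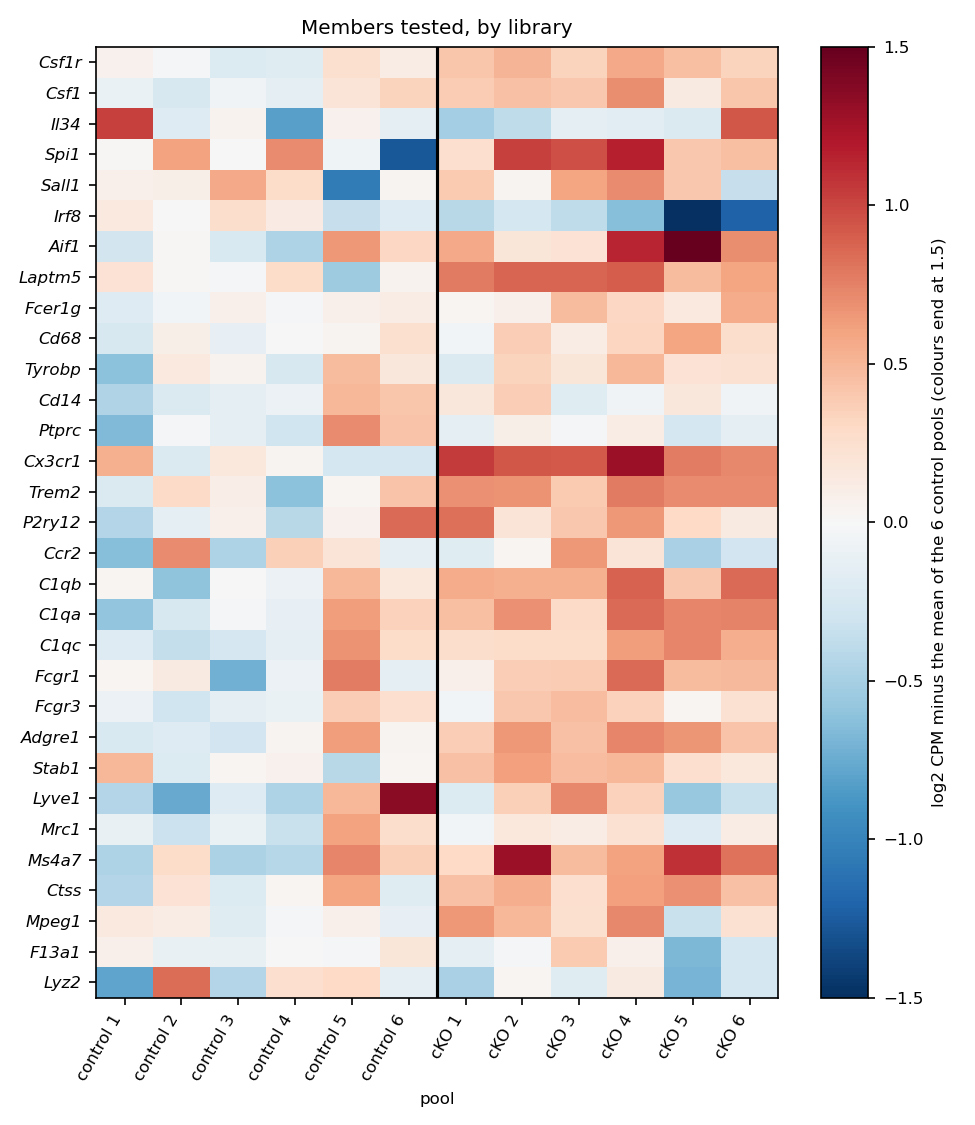
Log2 CPM of the 31 tested genes in each of the 12 pools, minus the mean of the 6 control pools, with colours ending at 1.5 and a line between the groups. The median over the genes lies between -0.19 and 0.24 in control pools and between 0.27 and 0.60 in cKO pools, and control 5 and control 6 are the redder control columns.

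Across libraries, the median of the 31 genes relative to the control mean was between -0.19 and 0.24 in control pools and between 0.27 and 0.60 in cKO pools, on the log2 scale. These medians describe a list chosen with earlier results known and carry no test. The highest control pools were control 5, at 0.24, and control 6, at 0.16, and control 5 held the highest control value of 14 of the 31 genes and control 6 of 7. The highest cKO pool was cKO 4, at 0.60, with the highest cKO value of 16 genes. The spread of log2 CPM between pools was smaller in cKO than in control testes for 25 of the 31 genes (80.6%), beside 69.9% of all genes tested.

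**Figure D4:**
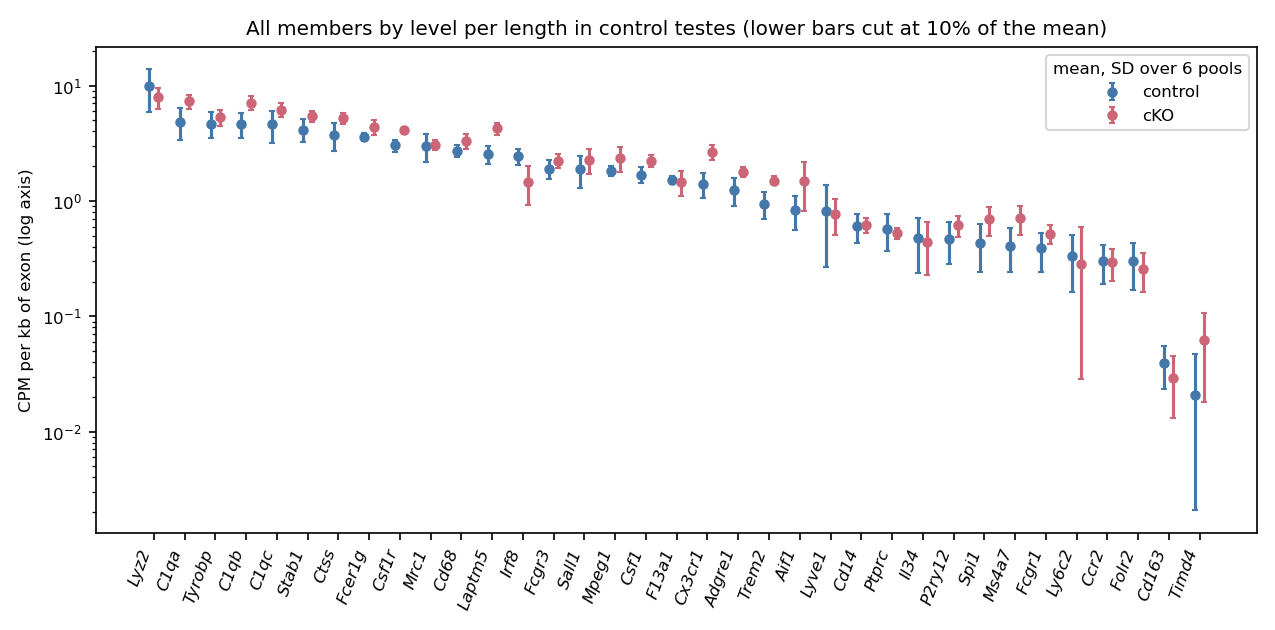
Level per kilobase of exon of all 35 genes in control and cKO testes (mean and SD over 6 pools, log axis), ordered by the control level. Lyz2 is highest at 9.89 CPM per kb and Timd4 lowest at 0.0207 CPM per kb in control testes.

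Per kilobase of exon, the highest control levels were those of Lyz2 (9.89 ± 4.02 CPM per kb), C1qa (4.87 ± 1.51), Tyrobp (4.68 ± 1.18), C1qb (4.63 ± 1.12), C1qc (4.63 ± 1.42) and Stab1 (4.16 ± 0.926, SD, n = 6 for each). The 5 after Lyz2 differ from each other by less than their SD. Csf1r stood at 3.03, Laptm5 at 2.56, Cx3cr1 at 1.40, Adgre1 at 1.24 and Trem2 at 0.948 CPM per kb in control testes. The upregulated genes thus lie from the upper to the middle part of this order. Irf8 stood at 2.44 and Spi1 at 0.434 CPM per kb, and Ccr2 at 0.303 CPM per kb. The defining markers Csf1r, Adgre1, Cx3cr1, Cd68 and the C1q genes were present in all 12 libraries, so that macrophage RNA was measured in every pool, whereas Cd163 and Timd4 were near 0.

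Genes of macrophage functions outside the set were described by lists. Among 13 tested of 14 Toll-like receptors and partner proteins, which sense microbial products, 2 were called higher and 0 lower by edgeR, with 0 lower at an unadjusted p under 0.05 and 0 lower by DESeq2 and limma-voom. The median log2FC was 0.34 and 11 of 13 were positive. Tlr2, the receptor for bacterial lipoproteins, went from 1.59 ± 0.427 to 2.52 ± 0.283 CPM (SD, n = 6 each, log2FC = 0.64, adjusted p = 0.0347), and Tlr8, an endosomal receptor for RNA, from 0.476 ± 0.152 to 0.815 ± 0.130 CPM (SD, n = 6 each, log2FC = 0.89, adjusted p = 0.0227). Neither was called without the 4 libraries with high Xist (adjusted p = 0.139 for Tlr2 and 0.111 for Tlr8).

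Among 22 tested of 30 other macrophage and microglia markers, 3 were called higher and 0 lower by edgeR, with 2 lower at an unadjusted p under 0.05, 2 called lower by DESeq2 and 1 by limma-voom, and the median log2FC was 0.16. Fcrls, an Fc receptor-like protein of microglia and other macrophages, went from 6.22 ± 1.37 to 9.17 ± 0.780 CPM (SD, n = 6 each, log2FC = 0.58, adjusted p = 0.016). Slco2b1, an organic anion transporter expressed by macrophages, rose by a log2FC of 0.60 (adjusted p = 0.0442), and Hpgds, a prostaglandin D synthase, by 0.79 (adjusted p = 0.0475). Hpgds was not called without the 4 libraries with high Xist (adjusted p = 0.11). Among 12 tested genes for the uptake of dying cells, 1 was called higher and 1 lower by edgeR, 1 higher and 2 lower by DESeq2 and by limma-voom, and 1 was higher and 3 were lower at an unadjusted p under 0.05. Elmo1, an adaptor of engulfment that many cells make, rose from 28.1 ± 4.33 to 43.1 ± 3.01 CPM (SD, n = 6 each, log2FC = 0.61, adjusted p = 0.00182). Cd36, a scavenger receptor that is also made by endothelium and fat-storing cells, fell from 11.7 ± 3.20 to 6.02 ± 0.883 CPM (SD, n = 6 each, log2FC = -0.95, adjusted p = 0.003).

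None of 6 genes of the phagocyte NADPH oxidase was called by edgeR or limma-voom, with 1 in each direction at an unadjusted p under 0.05 and 1 called higher by DESeq2. None of 10 antigen presentation genes was called by edgeR or limma-voom, with 1 in each direction at an unadjusted p under 0.05 and by DESeq2, and their median log2FC was -0.097.

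Of 23 cytokines and chemokines, 8 could be tested and 2 were called lower by all 3 tools, whereas none was called higher by edgeR or limma-voom and 1 by DESeq2 (2 higher at an unadjusted p under 0.05). Cxcl12, a chemokine made mainly by stromal cells, fell from 616.1 ± 93.7 to 408.9 ± 97.2 CPM (SD, n = 6 each, log2FC = -0.59, adjusted p = 0.0286). Cxcl16, a membrane-bound chemokine of macrophages and other cells, fell from 6.08 ± 1.32 to 3.51 ± 0.578 CPM (SD, n = 6 each, log2FC = -0.76, adjusted p = 0.00852). The interleukins Il6 and Il10 and the chemokine Cxcl2 had under 10 counts over all 12 libraries. Together, the 11 lists of other myeloid genes had 10 genes called higher and 4 lower of 119 tested by edgeR, beside 3.28% and 4.85% of all genes, with a median log2FC of 0.074. DESeq2 called 16 higher and 10 lower, and limma-voom 10 and 6. Without the 4 libraries with high Xist, edgeR called 7 higher and 3 lower, the 7 including Ace, a monocyte gene not called with all libraries (adjusted p = 0.0492 against 0.147).

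**Figure D5:**
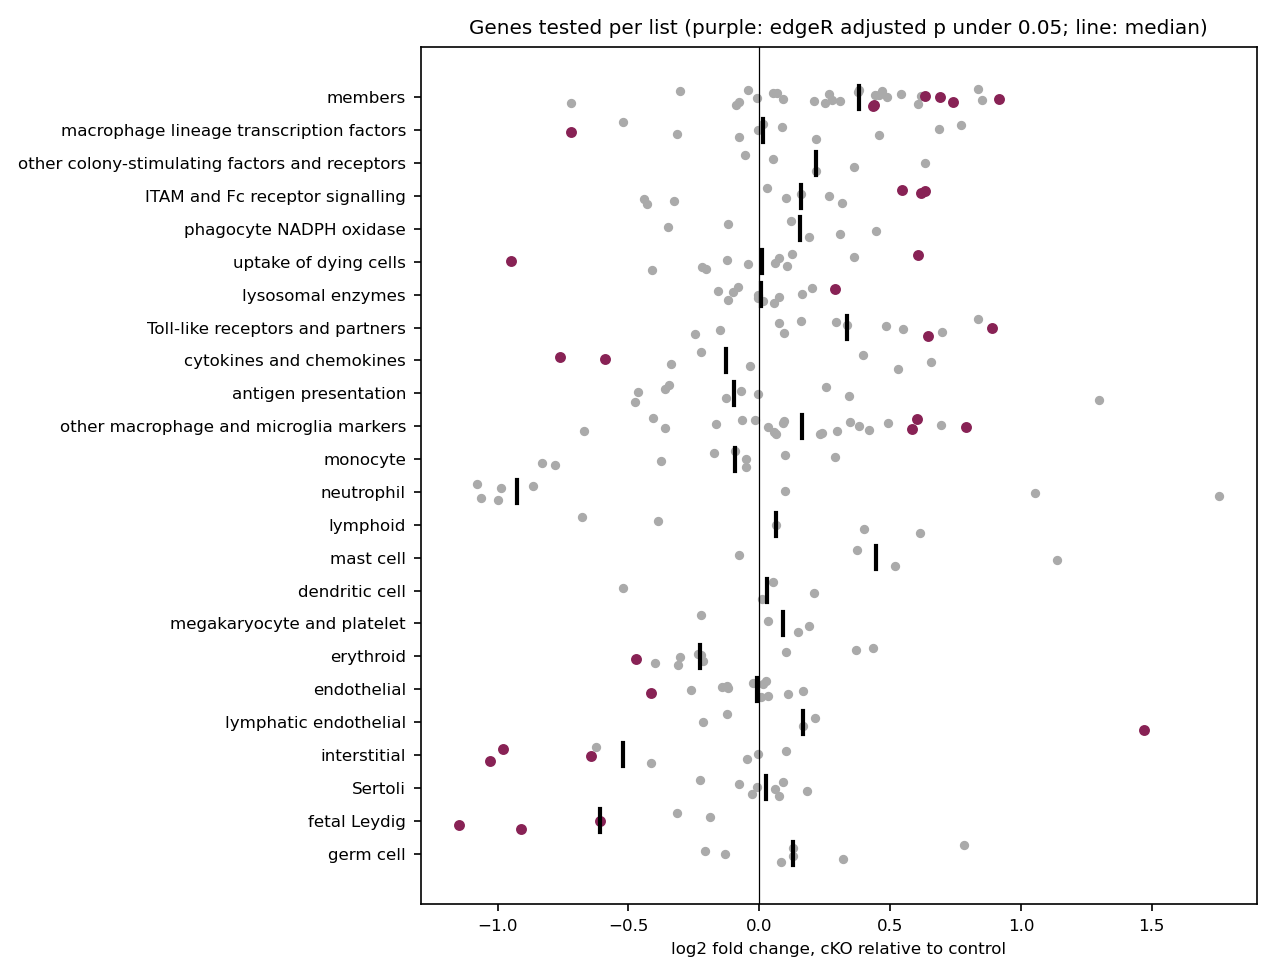
Log2 fold change of each tested gene in the set and in 23 other lists (points, purple where the adjusted p was under 0.05, with a line at the median). The median is 0.38 for the set, 0.34 for Toll-like receptors, -0.52 for interstitial genes and -0.61 for fetal Leydig genes.

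Markers of other cell types in the testes were measured beside the set. Of 32 tested genes of neutrophils, lymphoid cells, mast cells, dendritic cells, megakaryocytes and red cells, 1 was called lower by edgeR, the beta globin Hbb-bs (adjusted p = 0.0307, and 0.0692 without the 4 libraries with high Xist), and none higher. At an unadjusted p under 0.05, 1 was higher and 4 were lower. DESeq2 called 1 higher and 2 lower, and limma-voom 0 higher and 1 lower. The summed level of 9 mast cell genes was 58.4 CPM in control 1, 74.5 in cKO 3, 30.3 in cKO 5 and 28.3 in cKO 6, the 4 libraries with high Xist, and 14.7 to 20.8 CPM in the other 8. Hdc and Gata2 led this list, with medians of 8.705 and 6.88 CPM in control and 8.975 and 7.008 CPM in cKO pools. Cpa3 and Cma1 had medians of 1.545 and 0.2869 CPM in control and 1.037 and 0.4092 CPM in cKO pools. The sum alone does not show which of the genes were high in each of these 4 libraries. The T cell genes Cd3d, Cd3g and Cd8a had under 10 counts over all libraries. Of 12 endothelial genes, 1, the angiopoietin receptor Tek, was called lower and none higher (0 at an unadjusted p under 0.05 and 0 by DESeq2 and limma-voom), and their sum ran from 484 to 732 CPM in control and from 475 to 602 CPM in cKO pools. Tek was not called without the 4 libraries with high Xist (adjusted p = 0.182).

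Of 5 tested lymphatic endothelial genes of 6, 1 was called higher by edgeR, DESeq2 and limma-voom, and none was called lower by any of them (0 lower at an unadjusted p under 0.05). The gene that rose was Prox1, the factor that specifies lymphatic endothelium and is also made in other cell types. It went from 0.854 ± 0.270 to 2.45 ± 0.556 CPM (SD, n = 6 each, log2FC = 1.47, SE = 0.22, adjusted p = 0.00123), a larger log2FC than that of any tested gene of the set, and the groups do not overlap. The summed level of the 6 genes ran from 104.9 to 161.6 CPM in control and from 111.1 to 142.1 CPM in cKO pools. Pdpn and Reln led this sum, at means of 71.5 and 31.9 CPM in control and 61.6 and 37.1 CPM in cKO testes. A change of the size seen in Prox1 would therefore hardly show in the sum. The part of lymphatic endothelium in Lyve1 was not tested.

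Of 8 interstitial genes, 3 were called lower by edgeR, Tcf21, Wnt5a and Dcn, and none was called higher by edgeR, DESeq2 or limma-voom (0 higher at an unadjusted p under 0.05). DESeq2 called 5 lower and limma-voom 3, and 5 were lower at an unadjusted p under 0.05. Of 5 fetal Leydig genes, 3 were called lower by edgeR and none was called higher by any of these tools (0 higher at an unadjusted p under 0.05), with a median log2FC of -0.61. DESeq2 called 4 lower and limma-voom 3, and 4 were lower at an unadjusted p under 0.05. Of these genes of the interstitium and of Leydig cells, all 6 called lower by edgeR were also called lower by it without the 4 libraries with high Xist.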

How the data were processed

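Whole-testis RNA of 12 pools (6 control, 6 cKO) was sequenced after TruSeq stranded mRNA preparation. Per the labels and methods, the authors trimmed reads with Trim Galore 0.6.7, aligned them to mm10 with STAR 2.5, counted fragments by strand on RefSeq Curated models with featureCounts (Subread 1.5.0-p1), and deposited raw counts. All 12 columns were used.

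The analysis used edgeR 4.0.16 in R 4.3.3 (TMM scaling, filterByExpr at 10 counts and a total of 15, quasi-likelihood test without covariates, Benjamini-Hochberg adjustment over 15572 genes, threshold 0.05). The standard error is the log2 fold change divided by the square root of F. The biological coefficient of variation was 0.17. Levels per kilobase used the union of exons in GENCODE M21. The procedure was tested on simulated data.

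The 35 genes and the lists were chosen with earlier results of these data known. Values per library are given for called or non-overlapping genes and for Csf1, Il34, Ptprc, Ccr2, Ly6c2, Adgre1, Spi1 and the C1q genes. Of other lists, called genes were named, or else those of highest level. Some list results are not reported here. Names of some genes fall outside this rule where they mark low counts or lead a summed level.

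Alternatives were 3 other scalings, 2 filters, DESeq2 1.42.0 (the tool of the authors), limma-voom 3.58.1, the replicate number as a block, each library left out, the 4 libraries with Xist over 100 CPM left out, the 2 shallowest libraries (control 6 and cKO 5) left out, and Xist as a covariate.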

Additional observations from a re-analysis of the deposited data

Results flagged for a closer look

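In 5 of 62 groups of 6 pools, a value lay far from the others by Dixon's gap ratio, where chance gives about 1 in 20. Il34 had 1.7 CPM in control 1 against 0.424 to 0.842 CPM in the other control pools. Il34 also had 1.59 CPM in cKO 6 against 0.541 to 0.718 CPM in the other cKO pools. P2ry12 had 2.02 CPM in control 6 against 0.785 to 1.16 CPM. Trem2 had 1.41 CPM in cKO 3, below the 1.72 to 1.87 CPM of the other cKO pools. Adgre1 had 6.12 CPM in control 5 against 3.19 to 4.05 CPM in the other control pools.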

How the results depend on the processing

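Cx3cr1, Csf1r and Laptm5 were called in all 23 alternatives, Csf1 in 14, C1qb in 17 and Trem2 in 12, and the median over the set kept its sign and moved by less than 1 SD between control pools in each alternative it was computed for. DESeq2 and limma-voom each called 10 genes of the set higher and 1 lower, against 6 and 0. Leaving out 1 library gave 3 to 12 genes called higher, with 3 without control 3, control 4, cKO 4 or cKO 6 and 12 without control 5, and 0 to 1 called lower. Without the 4 libraries with high Xist, 6 genes of the set were called higher (Csf1, Csf1r, Laptm5, Cx3cr1, Stab1 and Mpeg1), 0 other blood cell genes lower (1 with all libraries) and 2 testis and vessel genes higher (1 with all libraries), the added gene being Nanos2 of germ cells, with 6 lower against 7. Without the 2 shallowest libraries (control 6 and cKO 5), 4 were called higher (Csf1, Csf1r, Laptm5 and Cx3cr1). Over all genes, 510 were called higher and 756 lower, against 878 and 1041 by DESeq2, 1471 and 1635 without control 1, 319 and 497 without cKO 4, and 280 and 360 without the 2 shallowest libraries. As shares of all genes, those called higher were 3.28% in the main fit, 4.16% by DESeq2 and 3.42% by limma-voom. They were 2.58% without control 3, 2.18% without control 4, 2.05% without cKO 4 and 2.29% without cKO 6. Without control 5 the share was 3.33%, and without control 1 it was 9.44%. It was 3.68% without the 4 libraries with high Xist and 1.78% without the 2 shallowest.

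Same-numbered pools correlated between -0.334 and 0.242 in their deviations from the group means, with 2 of 6 over 0.1 and 0 controls closest to their own number. The numbers were therefore not used as pairs in the main fit. Low correlations cannot show that the pools were unpaired, and the labels do not give litters. With the replicate block, 7 genes of the set were called higher and 1 lower, Csf1 (adjusted p = 0.0918) and Trem2 (adjusted p = 0.0893) were not called, and over all genes 392 were called higher and 539 lower.

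Signs turned in genes that were not called. Ccr2 had a log2FC of 0.022 scaled by total counts, 0.086 in limma-voom, 0.039 with the block, 0.02 without the 2 shallowest libraries and 0.11 with Xist as a covariate. Ptprc had 0.07 in limma-voom, 0.02 without the 2 shallowest libraries and 0.081 with Xist as a covariate. F13a1 had 0.016 without the 4 libraries with high Xist and 0.065 without the 2 shallowest. Leaving out 1 library, the log2FC ran from -0.471 to 0.291 for Il34, -0.006 to 0.214 for Cd14, -0.102 to 0.393 for Lyve1, -0.185 to 0.18 for Ccr2, -0.012 to 0.205 for Mrc1, -0.193 to 0.105 for Ptprc and -0.16 to 0.035 for F13a1. The cause of these shifts was not tested. Cd163, Timd4, Folr2 and Ly6c2 fell under the main filter and were not called by edgeR without it, and low expression and depth were not told apart.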
